A study of Mus musculus with 14 samples.

Results

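RNA was compared in C2C12, a line of mouse myoblasts able to fuse into muscle fibres in culture, between cells depleted of the Quaking isoforms Qk6 and Qk7 (Qk6/7 depletion) and cells depleted of the isoform Qk5 (Qk5 depletion). The comparison covers 8 of the 14 samples of the series, 4 for each depletion, which the labels give as 3 replicates per group because replicate 1 was sequenced in 2 runs. Its other members are the 1036 genes of the expression table and the 4019 exon bins of the splicing table, for each of which the ratio of Qk6/7 depletion over Qk5 depletion was taken. Cells received small interfering RNA (siRNA) against Qk6/7, siRNA against Qk5 or control siRNA, each carried in with Lipofectamine 2000, in high-glucose DMEM with 10% fetal bovine serum, and ribosomal RNA was removed before sequencing. Control cells (4 samples, 3 replicates) are shown beside the depletions, and the panQk depletion with 1 replicate was not analysed here. All groups come from 1 cell line, siRNA sequences were not used here, and no label states that replicates were separate cultures, so every p-value rests on a spread between samples that could be purely technical.

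Quaking (Qk) is an RNA-binding protein of the STAR family whose KH-type domain binds RNA holding ACUAAC or ACUAAU. Its isoforms share that domain and differ at the C-terminal end: Qk5 carries a nuclear localization signal and is known for regulating alternative splicing, while Qk6 and Qk7 are found mainly in the cytoplasm, where Quaking is known to act on the stability and translation of mRNAs. Mouse Quaking is best known from myelinating glia, and in myoblasts it is known as a regulator of muscle-specific splicing.

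The authors' deposited table gives for each gene a mean normalized count per condition, with no value per replicate, so neither an SD nor the depth of a sample is known here. Control means were identical in both of the authors' comparisons for all 1036 genes, which puts the depletions on 1 scale. The direct ratio is the log2 of the Qk6/7 depletion mean over the Qk5 depletion mean, so that a positive value is higher in Qk6/7 depletion. Its standard error (SE) was taken from whichever of the gene's 2 deposited p-values against control was the smaller, with a median of 0.245 on the log2 scale. In the 415 genes where both p-values were under 0.2 the 2 implied errors differed little, with a median ratio of 1.05 and 10th and 90th percentiles of 0.843 and 1.36. A gene was called higher or lower when the means differed at least 2-fold and an approximate normal test, with Benjamini-Hochberg adjustment over the 1033 genes that could be tested, gave an adjusted p under 0.05. Genes are in the table because the authors' adjusted p was under 0.1 against control in at least 1 depletion, and the errors come from those p-values, so counts below describe the table and are no rates over all genes. In simulated data, 202 genes with no difference entered such a table by chance. Of these, 70 had an approximate adjusted p under 0.05, more often than that threshold states, and 23 were called. An approximate adjusted p below is therefore a guide and no exact error rate.

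Most differences ran 1 way. Of 1033 genes tested, 370 (35.8%) were lower in Qk6/7 depletion than in Qk5 depletion and 67 (6.49%) were higher, 437 (42.3%) in all. The direct log2 ratio had a median of -0.72, with 329 genes above 0 and 706 below. After centring on that median the calls were 297 higher and 117 lower, and these included all 67 of the genes called higher and 117 of the 370 called lower. Which side holds more genes therefore depends on whether the median is subtracted. The table holds genes selected for a difference from control, so its median need not be a shift of scale. Centring is given as an alternative only, and calls of named lists that it changes are given below. Centring here means subtracting the table's median from every ratio.

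The excess of lower calls lay mainly among genes of low level. Of the table's genes, 518 had an average of the 2 depletion means at or above the median of 273.8 normalized counts, and 34 of these were called higher and 98 lower, with a median log2 ratio of -0.34. Among the 518 genes under that level 33 were called higher and 272 lower, with a median of -1.10. Genes called lower had a median level of 47.7 normalized counts in Qk6/7 depletion and 146 in Qk5 depletion, with 79.1 in control. Genes called higher had 449 in Qk6/7 depletion and 150 in Qk5 depletion, with 301 in control. In bulk RNA, fewer cells of a type and less RNA per cell cannot be told apart.

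**Figure D1:**
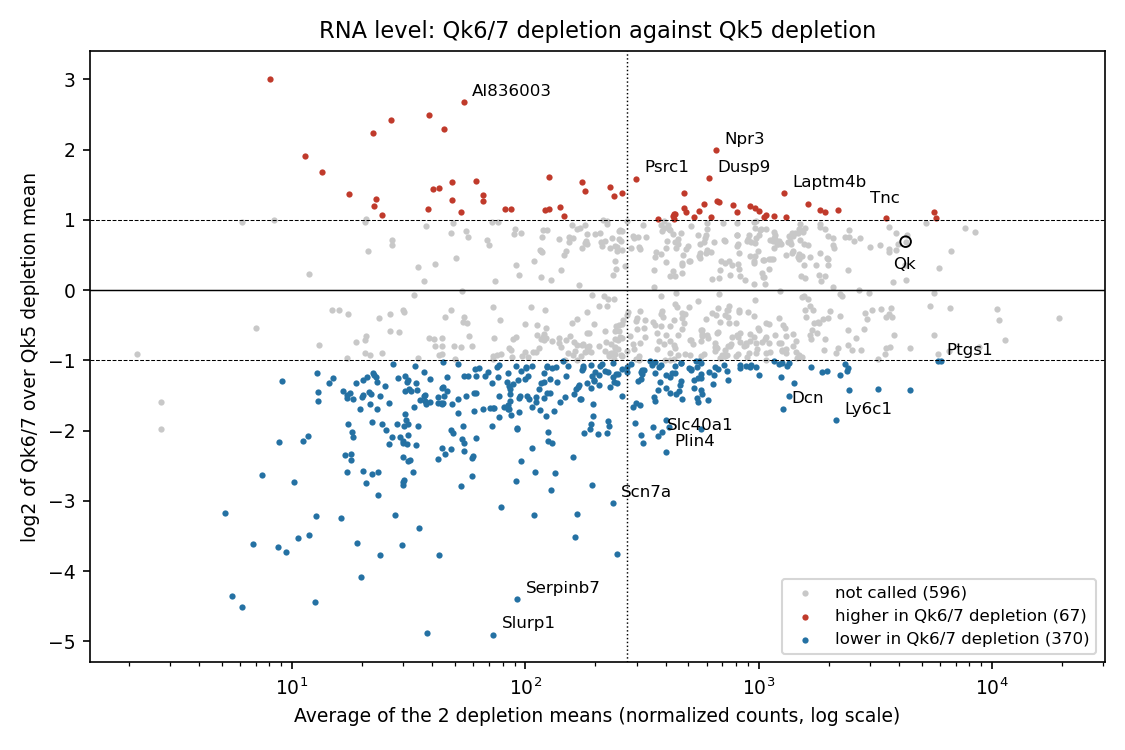
Direct log2 ratio of Qk6/7 depletion over Qk5 depletion (vertical axis) against the average of the 2 depletion means (normalized counts, log scale) for 1033 genes, 1 point each. Red points are the 67 genes higher in Qk6/7 depletion, blue points the 370 lower, the dashed lines mark a 2-fold difference and the dotted line the median level of 273.8; Qk is ringed at 0.69, and blue points crowd the low-level side.

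Each gene was also placed against its control mean. For 252 of the 370 lower genes (68.1%) and 43 of the 67 higher genes (64.2%) the control mean lay between the depletion means, against 40.0% of all tested genes. Among lower genes the control mean was nearer to Qk6/7 depletion in 223 and nearer to Qk5 depletion in 147. The 223 are 60.3% of lower genes, close to the 59.5% of all tested genes, so this is no trait of lower genes. By the authors' DESeq calls at adjusted p under 0.05 in the authors' deposited table, 124 of the lower genes were down in Qk6/7 depletion (20.7% of the table were), 212 were up in Qk5 depletion (34.7% of the table), 17 were both and 51 were neither. Of the higher genes, 17 were up in Qk6/7 depletion (9.75% of the table), 37 were down in Qk5 depletion (12.8% of the table) and 13 were called in neither by the authors' deposited table. These counts share the control samples and are set in part by how the table was selected. Genes were also called for a gap of at least 2-fold between the depletion means, and a wider gap holds the control mean more readily. The shares with control between the depletions are thus set in part by the calling rule.

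The Qk gene averaged 5271 normalized counts in Qk6/7 depletion and 3267 in Qk5 depletion, with 5875 in control, in the authors' deposited table. That is 89.7% of the control mean in Qk6/7 depletion and 55.6% in Qk5 depletion. The direct log2 ratio was 0.69 with an implied SE of 0.20 (approximate test from the authors' deposited p-values with Benjamini-Hochberg adjustment, adjusted p = 0.00143), short of 2-fold and so not called, although it was called after centring. It ranked 185 from the top of the table. A whole-gene level does not separate the isoforms and no bin of Qk is among the 4019, so the depletion of each isoform could not be checked from these values.

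The 12 largest ratios of higher genes with levels not under the median lay between 1.17 and 1.99. Npr3, the clearance receptor that removes natriuretic peptides, led with 1053 normalized counts in Qk6/7 depletion and 264 in Qk5 depletion, against 194 in control, in the authors' deposited table. Its direct log2 ratio was 1.99 with an implied SE of 0.24 (approximate test from the authors' deposited p-values with Benjamini-Hochberg adjustment, adjusted p = 7.49e-15), and control lay close to Qk5 depletion. The MAP kinase phosphatase gene Dusp9 had 918 in Qk6/7 depletion and 304 in Qk5 depletion, with control between them at 608, in the authors' deposited table. Its relative Dusp5 had 941 in Qk6/7 depletion and 392 in Qk5 depletion, with 538 in control, in the authors' deposited table. Their log2 ratios were 1.60 for Dusp9 and 1.26 for Dusp5. Areg, the epidermal growth factor receptor ligand amphiregulin, had 815 in Qk6/7 depletion and 349 in Qk5 depletion, with 632 in control, in the authors' deposited table, a log2 ratio of 1.22.

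For Laptm4b and Necap2 control stood level with Qk6/7 depletion. Laptm4b, a membrane protein of lysosomes, had 1855 normalized counts in Qk6/7 depletion and 710 in Qk5 depletion, with 1960 in control, in the authors' deposited table. The endocytosis adaptor gene Necap2 had 1081 in Qk6/7 depletion and 467 in Qk5 depletion, with 1100 in control, in the authors' deposited table. Their log2 ratios were 1.39 and 1.21, and neither was called against control in Qk6/7 depletion by the authors' DESeq test (adjusted p = 1 for both in the authors' deposited table). Psrc1, a microtubule-binding p53 target, had 449 in Qk6/7 depletion and 150 in Qk5 depletion, with 347 in control, in the authors' deposited table, a log2 ratio of 1.59. Rnd1, a small GTPase that loosens actin fibres, had 693 in Qk6/7 depletion and 266 in Qk5 depletion, with 337 in control, in the authors' deposited table, a log2 ratio of 1.38. The remaining ones were Nefm (neurofilament medium chain, log2 ratio 1.25), Asns (asparagine synthetase, 1.22), Dmwd (1.19) and Rbpms2 (an RNA-binding protein, 1.17).

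The 12 largest ratios on the other side were larger in size, from -2.31 to -1.69. Plin4, a coat protein of lipid droplets, had 135 normalized counts in Qk6/7 depletion and 670 in Qk5 depletion, with control between at 335, in the authors' deposited table. Its log2 ratio was -2.31 with an implied SE of 0.25 (approximate test from the authors' deposited p-values with Benjamini-Hochberg adjustment, adjusted p = 1.75e-18). Slc40a1, the iron exporter ferroportin, had 142 in Qk6/7 depletion and 602 in Qk5 depletion, with 213 in control, in the authors' deposited table. Cp, the ferroxidase ceruloplasmin that works with it, had 145 in Qk6/7 depletion and 561 in Qk5 depletion, with 283 in control, in the authors' deposited table. Their log2 ratios were -2.08 for Slc40a1 and -1.96 for Cp, so both genes of iron export were about 4 times lower.

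Further genes of that group differed by how far each depletion stood from control. Dhrs3, which reduces retinal to retinol, had 152 normalized counts in Qk6/7 depletion and 618 in Qk5 depletion, with 274 in control, in the authors' deposited table (log2 ratio -2.02). Dcn, the collagen-binding proteoglycan decorin, had 605 in Qk6/7 depletion and 1951 in Qk5 depletion, with 660 in control, in the authors' deposited table, so that only the Qk5 depletion mean stood apart (log2 ratio -1.69; not called after centring). C1qtnf6, a secreted protein of the C1q and TNF-related family, had 229 in Qk6/7 depletion and 900 in Qk5 depletion, with 815 in control, in the authors' deposited table, so that only the Qk6/7 depletion mean did (log2 ratio -1.97). Ly6c1, a lipid-anchored surface protein, was the most abundant of the 12, with 927 in Qk6/7 depletion and 3350 in Qk5 depletion, against 1460 in control, in the authors' deposited table (log2 ratio -1.85). Cd55, which protects cells from complement, had a log2 ratio of -1.90 and C1qtnf1, a relative of C1qtnf6, one of -1.86. D0H4S114 (-2.18), Tmem151a (-2.06) and Tmem140 (-1.95) made up the 12.

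**Figure D2:**
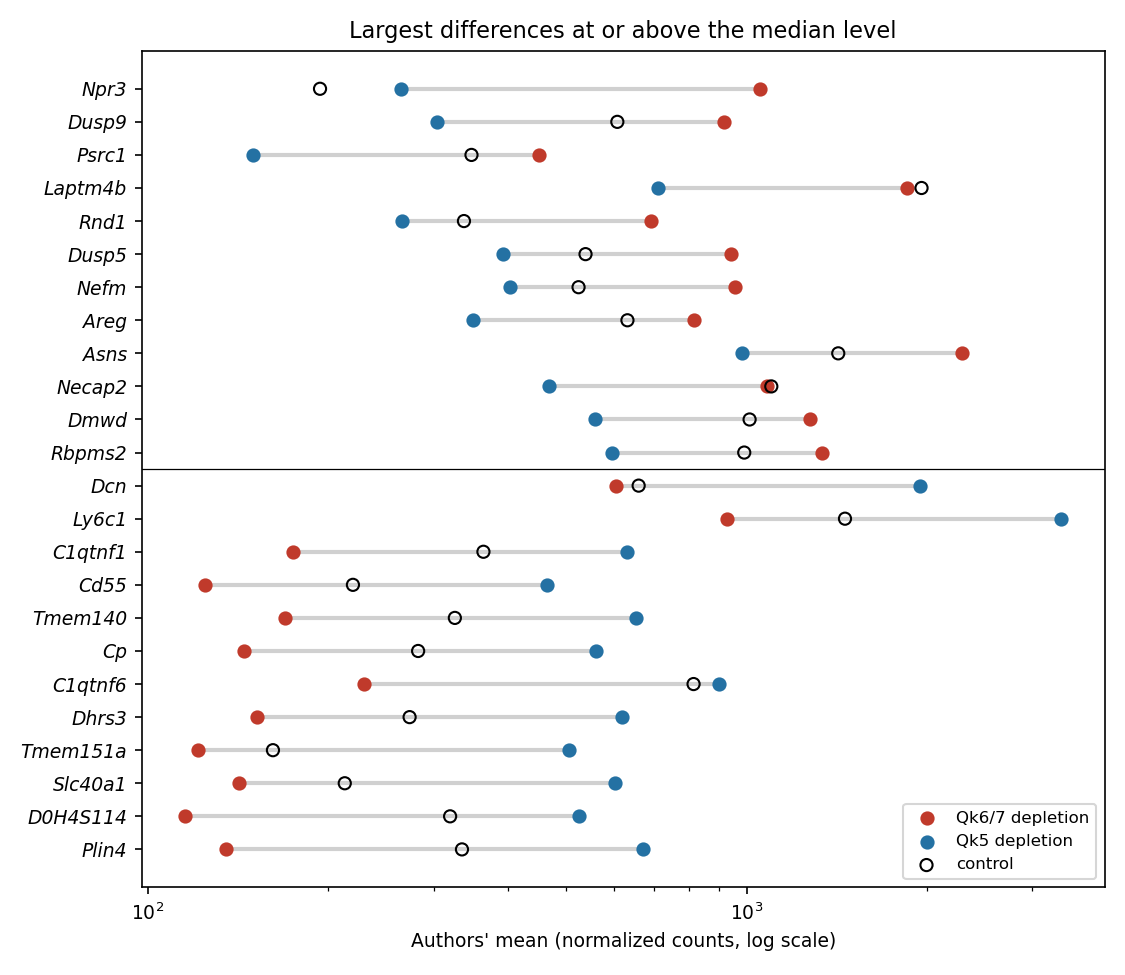
Authors' mean normalized counts (log scale) in Qk6/7 depletion (red), Qk5 depletion (blue) and control (open circles) for the 12 largest (above the line) and 12 smallest (below it) direct ratios among called genes at or above the median level. For Laptm4b and Necap2 control sits beside Qk6/7 depletion, for Npr3 and C1qtnf6 beside Qk5 depletion, and for Plin4, Cp and Cd55 between; the table gives no error for a mean.

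Genes of low level gave the largest ratios. Slurp1, a secreted protein of the Ly6 family, had 4.72 normalized counts in Qk6/7 depletion and 141 in Qk5 depletion, with 9.72 in control, in the authors' deposited table. Serpinb7, a serine protease inhibitor, had 8.36 in Qk6/7 depletion and 177 in Qk5 depletion, with 7.86 in control, in the authors' deposited table. Their log2 ratios were -4.90 for Slurp1 and -4.40 for Serpinb7, with Tmem184a (-4.88), 2310043J07Rik (-4.43), the serpin gene Serpinb6c (-4.09) and Sprr1b, a precursor of the cornified envelope of skin (-3.77), beside them. In 5 of these 6 genes, all but 2310043J07Rik, the authors' deposited table does not call the Qk6/7 depletion mean different from control and calls the Qk5 depletion mean up. On the higher side stood AI836003 (2.67), the neuronal adhesion gene Nrcam (2.50), the phosphoinositide 3-kinase genes Pik3c2b (2.43) and Pik3cd (2.30), the transporter gene Slc16a6 (2.24) and Csmd3 (1.91, under 2-fold with 10 counts added to each mean). Nrcam had 65.5 in Qk6/7 depletion and 11.6 in Qk5 depletion, with 10.8 in control, in the authors' deposited table.

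Short words in the 3′ untranslated regions (3′ UTRs) differed in frequency between higher and lower genes, and examples are shown because most of the largest higher genes hold one of them. The pair CTCTGAA and CCTCTGA, which overlap in CTCTGA, and the pair GTCTTAA and GGTCTTA, which overlap in GTCTTA, were picked in an earlier examination of these same data among genes lowered against control in Qk5 depletion and in Qk6/7 depletion, so their shares are a description and support nothing. The core of the Quaking response element was searched as ACTAAC or ACTAAT, and all words on the transcript strand alone. The capitals below mark the word in 30 bases of the longest annotated 3′ UTR of each gene (GENCODE M21, GRCm38), written 5′ to 3′ on the transcript strand. The first pair is shown in 4 higher genes, at chr3:108387734-108387763 (plus strand, Psrc1), chr15:34283660-34283689 (plus, Laptm4b), chr15:98669433-98669462 (minus, Rnd1) and chr6:7675254-7675283 (minus, Asns).
Psrc1: tccagggctgaCCTCTGAagtagagactat
Laptm4b: cttctccattcCCTCTGAttgttttgaaag
Rnd1: ttgttctacttCTCTGAAtcccacctgcat
Asns: gtttcttccggCTCTGAAggtcgagacagc
The second pair is shown in 2 lower genes, at chr6:34873109-34873138 (plus, Tmem140) and chr6:51589243-51589272 (plus, Snx10).
Tmem140: tccGGTCTTAcaaaggcttattatgggatt
Snx10: tatatatatttGGTCTTAactggattttaa
The response element core is shown in 3 lower genes and in Qk, at chr1:45909258-45909287 (minus, Slc40a1), chr3:20007190-20007219 (plus, Cp), chr1:130439745-130439774 (minus, Cd55) and chr17:10206538-10206567 (minus, Qk).
Slc40a1: agggctaggagcACTAACtaaccatcgcca
Cp: acccttttcaatACTAACtttaagtattgg
Cd55: aaggaagactatACTAACaaacctgcagtg
Qk: taataccaacctACTAACtctggactatgt

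A 3′ UTR was found for 955 of the tested genes. The first pair stood in 22 of 34 genes at or above the median level and higher in Qk6/7 depletion (64.7%) and in 17 of 94 such genes that were lower (18.1%), against 39.6% of 379 genes at such levels that were not called and 25.5% of all 20981 genes with an annotated 3′ UTR. Over all levels it stood in 50.8% of 65 higher and 22.7% of 331 lower genes, against 37.9% of 559 not called. Of the 12 largest higher genes 9 held it, the exceptions being Dusp9, Nefm and Areg, and of the 12 largest lower genes 1 did. The second pair stood in 2.94% of the higher and 28.7% of the lower genes at such levels, against 21.4% of those not called and 13.7% of all annotated genes, and over all levels in 9.23% of the higher and 18.7% of the lower genes. The response element core stood in 29.4% of the higher and 38.3% of the lower genes, against 37.7% of those not called and 32.0% of all annotated genes, and over all levels in 30.8% of the higher and 32.9% of the lower genes. Of the 12 largest higher genes 3 held the core (Npr3, Necap2 and Dmwd), and of the 12 largest lower genes 4 did, so the examples shown do not set lower genes apart. Median 3′ UTR lengths were 1092.5 bases for the higher and 1446.5 for the lower genes at such levels, and 1474 for those not called. The annotated 3′ UTR of Qk, 7014 bases long, holds 5 matches of the first pair, 0 of the second and 5 of the core.

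The direct ratio differed least with the first pair where 3′ UTRs were long. In the shortest length class (up to 728 bases) the median log2 ratio was 0.53 in 39 genes with the pair and -0.88 in 280 without. In the middle class it was 0.56 in 101 genes with the pair and -0.81 in 216 without, and in the longest (from 1871 bases) it was -0.44 in 180 with and -0.80 in 139 without. For the response element core the medians over all lengths were -0.67 in 335 genes with it and -0.69 in 620 without.

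**Figure D3:**
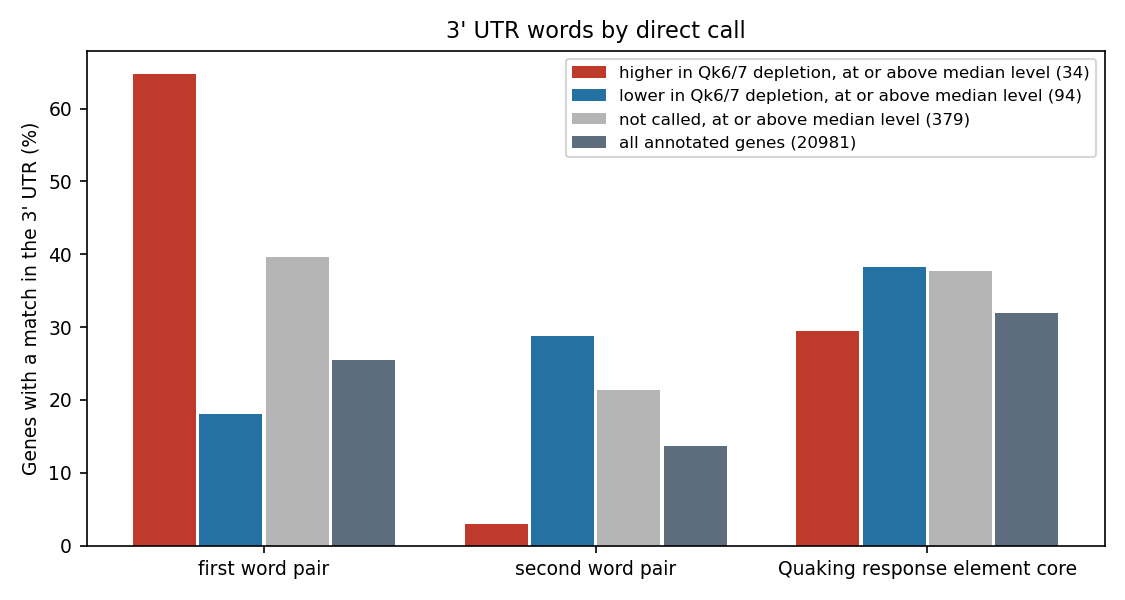
Share of genes (%) whose longest annotated 3′ UTR holds a word of the first pair (CTCTGAA or CCTCTGA), the second pair (GTCTTAA or GGTCTTA) or the Quaking response element core (ACTAAC or ACTAAT). Red bars are the 34 higher and blue bars the 94 lower genes at or above the median level, grey bars the 379 genes at such levels not called and dark bars all 20981 annotated genes; the first pair stands at 64.7% in higher and 18.1% in lower genes, the core at 29.4% and 38.3%.

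Sarcomere genes were the group with the most members, and all their ratios were below 0. The sarcomere and contractile apparatus list, genes of the filaments that shorten a muscle fibre and of their calcium and energy supply, had 23 of its 49 genes in the table: 14 were called lower, none higher and 9 were not called (35.8% of all tested genes were called lower). Its median log2 ratio was -1.23, or -0.51 relative to the table's median, and all 23 values were negative, from -2.38 to -0.12. Xirp2, an actin-binding protein of muscle, had 51.7 normalized counts in Qk6/7 depletion and 269 in Qk5 depletion, with 48.1 in control, in the authors' deposited table. The skeletal muscle actin gene Acta1 had 620 in Qk6/7 depletion and 1325 in Qk5 depletion, with 475 in control, in the authors' deposited table. Their log2 ratios were -2.38 for Xirp2 and -1.10 for Acta1.

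Most troponin genes and myoglobin were also lower. Lmod3 (leiomodin, log2 ratio -1.93), Mb (myoglobin, -1.72), Casq2 (calsequestrin, -1.66), Myh3 (embryonic myosin heavy chain, -1.47), Tnnc2 (-1.41), Tnni1 (-1.34), Tnnc1 (-1.31), Mylpf (-1.28), Neb (nebulin, -1.23) and Ckm (muscle creatine kinase, -1.22) were called lower, as were Mustn1 (-1.34) and Trim63 (-2.07, under 2-fold with 10 counts added to each mean). Members not called included Ttn (titin, -0.68), the troponin genes Tnni2 (-0.69) and Tnnt1 (-0.12) and the light chain gene Myl1 (-0.47), which lie above the table's median. For Lmod3 the means were 12.5 in Qk6/7 depletion, 47.8 in Qk5 depletion and 12.5 in control, in the authors' deposited table. None of the 23 was called against control in Qk6/7 depletion and 19 were in Qk5 depletion by the authors' deposited table, by which most of the list entered it. After centring, Xirp2 and Lmod3 alone stayed called.

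Other muscle lists held fewer called members. Of 6 genes of the Z-disc, costamere and dystrophin complex, 2 were called lower and none higher (35.8% and 6.49% of all tested genes were). Their median log2 ratio was -0.65 (0.07 relative to the table's median). Myoz2, which ties calcineurin to the Z-disc, had a log2 ratio of -2.60, with 9.41 normalized counts in Qk6/7 depletion, 56.8 in Qk5 depletion and 5.19 in control in the authors' deposited table. Sspn (sarcospan, of the dystrophin complex) had a log2 ratio of -1.60, with 273 in Qk6/7 depletion, 825 in Qk5 depletion and 1075 in control in the authors' deposited table, so these genes differ in which depletion stood near control. After centring, Sspn was not called and Pdlim3 was called higher.

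Among 5 myogenic regulators 1 was called (42.3% of all tested genes were). This was Id2, an inhibitor of myogenic transcription factors, at a log2 ratio of -1.04 (not called after centring). Id3 (-0.93) and Id1 (-0.80), of the same family, and Myog (myogenin, -0.75) were under 2-fold, and Myf5, a factor of proliferating myoblasts, had 0.65 and was called higher after centring. The list's median was -0.80, or -0.08 relative to the table's median. Of the myoblast markers Myod1, Myf5, Cdh15, Des and Myog, the table holds Myf5 and Myog, and the levels of the others were not analysed here.

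Markers of other cell types were nearly absent from the table. The 15 endothelial and smooth muscle and the 15 oligodendrocyte and Schwann markers had no gene in it, and the 12 adipocyte markers had 1, Car3, which resting muscle also expresses, at a log2 ratio of -1.23. Of 15 osteoblast and cartilage markers Phex was lower (-1.25) and Runx2 was not called (0.42); after centring Car3 and Phex were not called and Runx2 was higher, and of 15 macrophage and leukocyte markers 1 was there, Cd68, at -1.99. Cd68 had 19.3 normalized counts in Qk6/7 depletion and 77.0 in Qk5 depletion, with 56.6 in control, in the authors' deposited table. Their part in the muscle and matrix results was not tested.

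Extracellular matrix genes were called on both sides. Of 16 members in the table, 4 were called lower and 1 higher (35.8% and 6.49% of all tested genes were), with a median log2 ratio of -0.72 (0.01 relative to the table's median). The fibril-associated collagen gene Col14a1 (-3.39), Aspn (asporin, -2.18), Dcn and Emilin1 (-1.33) were lower. Tnc (tenascin C, a matrix protein of growing tissue) was higher, with 4731 normalized counts in Qk6/7 depletion and 2316 in Qk5 depletion, against 2022 in control, in the authors' deposited table (log2 ratio 1.03). Postn (periostin) at 0.60 and Fn1 (fibronectin) at -0.40 were not called. After centring, Postn and Ccbe1 were called higher beside Tnc, and Col14a1 and Aspn alone stayed lower.

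TGF-beta and BMP signalling had 1 called gene of 5 (42.3% of all tested genes were called), Fst (follistatin, which binds activins), at a log2 ratio of 1.36. Its means were 94.7 in Qk6/7 depletion, 37.0 in Qk5 depletion and 37.2 in control, in the authors' deposited table. Fstl3 (0.45), Gdf11 (0.46), Ctgf (-0.28) and Tgfb1 (-0.75) were not called, and the median was 0.45 (1.17 relative to the table's median). After centring, Gdf11 and Fstl3 were called higher beside Fst.

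Interferon-response genes went both ways: of 11 in the table, 3 were called higher and 4 lower (6.49% and 35.8% of all tested genes were). Their median log2 ratio was -0.91 (-0.19 relative to the table's median). The guanylate-binding protein genes Gbp2 (-2.41), Gbp5 (-2.33) and Gbp3 (-1.55) and the RNA sensor gene Ddx58 (-1.30) were lower. Gbp2 had 13.4 normalized counts in Qk6/7 depletion and 71.1 in Qk5 depletion, with 69.7 in control, in the authors' deposited table. Isg15, a ubiquitin-like modifier, was higher (1.37), with 25.3 in Qk6/7 depletion and 9.77 in Qk5 depletion, against 59.1 in control, in the authors' deposited table. Ifit1, which binds foreign RNA, was higher (1.16), with 52.7 in Qk6/7 depletion and 23.6 in Qk5 depletion, against 124 in control, in the authors' deposited table. Isg15 and Ifit1 were thus below control in both depletions. The third higher gene, the chemokine gene Cxcl10, had 14.4 in Qk6/7 depletion and 1.78 in Qk5 depletion, with 17.3 in control, in the authors' deposited table. Isg15, Ifit1 and Gbp3 were under 2-fold when 10 counts were added to each mean. After centring Gbp3 and Ddx58 were not called and Rsad2 was called higher.

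The listed genes of amino acid supply and of the endoplasmic reticulum (ER) stress response that entered the table were all above 0. Of 34 genes of the list, 7 were there. Of these, 3 were called higher and none lower (6.49% of all tested genes were called higher). Their median log2 ratio was 0.93, or 1.65 relative to the table's median. Asns had 2292 normalized counts in Qk6/7 depletion and 982 in Qk5 depletion, with 1422 in control, in the authors' deposited table. Slc7a5, the large neutral amino acid transporter, had 3009 in Qk6/7 depletion and 1371 in Qk5 depletion, with 1490 in control, in the authors' deposited table (log2 ratio 1.13). Aldh1l2, a folate enzyme of mitochondria, had 1569 in Qk6/7 depletion and 752 in Qk5 depletion, with 533 in control, in the authors' deposited table (log2 ratio 1.06). Chac1 (0.93), Slc7a11 (0.93), Trib3 (0.87) and Pdia4 (0.53) were under 2-fold, and all 7 were called after centring. At the authors' adjusted p under 0.1, Aldh1l2, Chac1, Slc7a5, Trib3 and Asns were up against control in Qk6/7 depletion. Pdia4 and Slc7a11 were down against control in Qk5 depletion at that limit. Either way of entering the table favours a ratio above 0, so these signs and calls are set in part by that selection.

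Growth signalling and p53 targets had more higher than lower calls. Of all tested genes 6.49% were called higher and 35.8% lower. Of 8 genes of MAP kinase and Wnt feedback 3 were called higher (Dusp9, Dusp5 and Areg) and 1 lower (Wisp2, -1.08), with a median log2 ratio of 0.87 (1.59 relative to the table's median). After centring 6 were higher and none lower, and Wisp2 was also under 2-fold with 10 counts added to each mean. Of 9 p53 targets 3 were called higher, Psrc1, the stress kinase gene Plk3 (1.16) and Ei24 (1.13), and none lower, with a median of 0.76 and 4 values below 0. After centring 5 of the 9 were higher. Ei24 had 1381 normalized counts in Qk6/7 depletion and 632 in Qk5 depletion, with 1402 in control, in the authors' deposited table. The p53 targets Btg2 (-0.66) and Eda2r (-0.63) were not called. None of the 3 cell cycle genes in the table was called, though all 3 were called higher after centring, with log2 ratios of 0.50 (Ccnd2), 0.54 (Mcm5) and 0.75 (Mcm2), at approximate Benjamini-Hochberg adjusted p of 0.0303, 0.00497 and 0.000219.

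Most lipid, retinoid and fatty acid genes in the table were lower. Of 39 genes of the list 7 were in the table. Of these, 5 were called lower and none higher (35.8% and 6.49% of all tested genes were), with a median log2 ratio of -2.02, or -1.30 relative to the table's median. The 2 not called were Crabp2 and Fabp3 (-0.68). Hpgd, which breaks down prostaglandins, had 21.5 normalized counts in Qk6/7 depletion and 197 in Qk5 depletion, with 58.6 in control, in the authors' deposited table (log2 ratio -3.20). Hmgcll1, an enzyme that cleaves hydroxymethylglutaryl-CoA, had 31.3 in Qk6/7 depletion and 226 in Qk5 depletion, with 99.0 in control, in the authors' deposited table (log2 ratio -2.85). Ptgs1, the prostaglandin-synthesizing cyclooxygenase, had 3920 in Qk6/7 depletion and 7876 in Qk5 depletion, with 6608 in control, in the authors' deposited table (log2 ratio -1.01; not called after centring). For Hpgd and Hmgcll1, as for Plin4 and Dhrs3, control lay between the depletions. All 7 were down against control in Qk6/7 depletion, up in Qk5 depletion, or both, by the authors' calls. Both ways of entering the table favour a ratio below 0, so these signs and calls are set in part by that selection.

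Metabolic and detoxifying genes gave mixed counts, to be read beside the 6.49% of all tested genes called higher and the 35.8% called lower. Of 11 glutathione and NRF2 genes 3 were called lower and none higher, with a median log2 ratio of -0.38 (0.34 relative to the table's median): Gsta1 (-1.20), Mgst1 (-1.17) and Cat (catalase, -1.15), none of them called after centring, where Slc7a11 was called higher. Gsta1 is nearly identical to other glutathione transferases, which can share its reads, and it was not called when its error was taken from the larger p-value. Of 7 genes of glucose metabolism and respiration 1 was higher, Cox6a1, a cytochrome c oxidase subunit (1.11), and 2 were lower, Cox8b, a muscle subunit of the same enzyme (-2.02; not called with 10 counts added to each mean), and Pdk1, a kinase that shuts off pyruvate dehydrogenase (-1.16), with a median of -0.06 (0.66 relative to the table's median). Pdk1 had 1158 normalized counts in Qk6/7 depletion and 2593 in Qk5 depletion, with 741 in control, in the authors' deposited table, and was not called after centring, where Hk2 and Pdk4 were called higher. Of 4 iron and heme genes Slc40a1 and Cp were lower, and Hmox1 (heme oxygenase, -0.42) and Blvra (0.20) were not called.

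Among 5 lysosome and endosome genes, Laptm4b and Ostm1 (1.07) were higher and Cd68 and Snx10 (a sorting nexin, -1.66) lower. After centring Snx10 was not called. Of all tested genes 6.49% were called higher and 35.8% lower. Of 5 genes of small GTPases and the cytoskeleton, Rnd1 and the tubulin cofactor gene Tbcb (1.11) were higher, and Mylk (myosin light chain kinase, -1.56) and Tubb3 (a neuronal tubulin, -1.05) lower, with a median of -0.39 (0.33 relative to the table's median); after centring Rnd1 and Tbcb alone stayed called. All 4 genes of ion channels and neuropeptide signalling in the table were called, of 39 in the list (42.3% of all tested genes were called). Npr3 was higher, and Cck (cholecystokinin, -3.19), the sodium channel gene Scn7a (-3.03) and Nppb (brain natriuretic peptide, -1.08) were lower. Cck had 32.8 normalized counts in Qk6/7 depletion and 299 in Qk5 depletion, with 160 in control, in the authors' deposited table. Scn7a had 51.6 in Qk6/7 depletion and 422 in Qk5 depletion, with 103 in control, in the authors' deposited table. Of the natriuretic peptide genes, the receptor gene Npr3 was higher and the ligand gene Nppb lower, though Nppb was under 2-fold after centring and with 10 counts added.

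Among secreted immune and growth factors C1qtnf6, C1qtnf1 and Hgf (hepatocyte growth factor, -1.25) were lower. After centring Hgf was not called and Pdgfb was called higher. None of 4 RNA-binding splicing and decay factors was called, though Qk, Rbm38 and Igf2bp1 were called higher after centring. Besides Qk these were Rbm38 (0.80), Igf2bp1 (1.00) and the splicing regulator Celf2 (-0.95), at approximate Benjamini-Hochberg adjusted p of 0.00819, 0.167 and 7.87e-05.

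**Figure D4:**
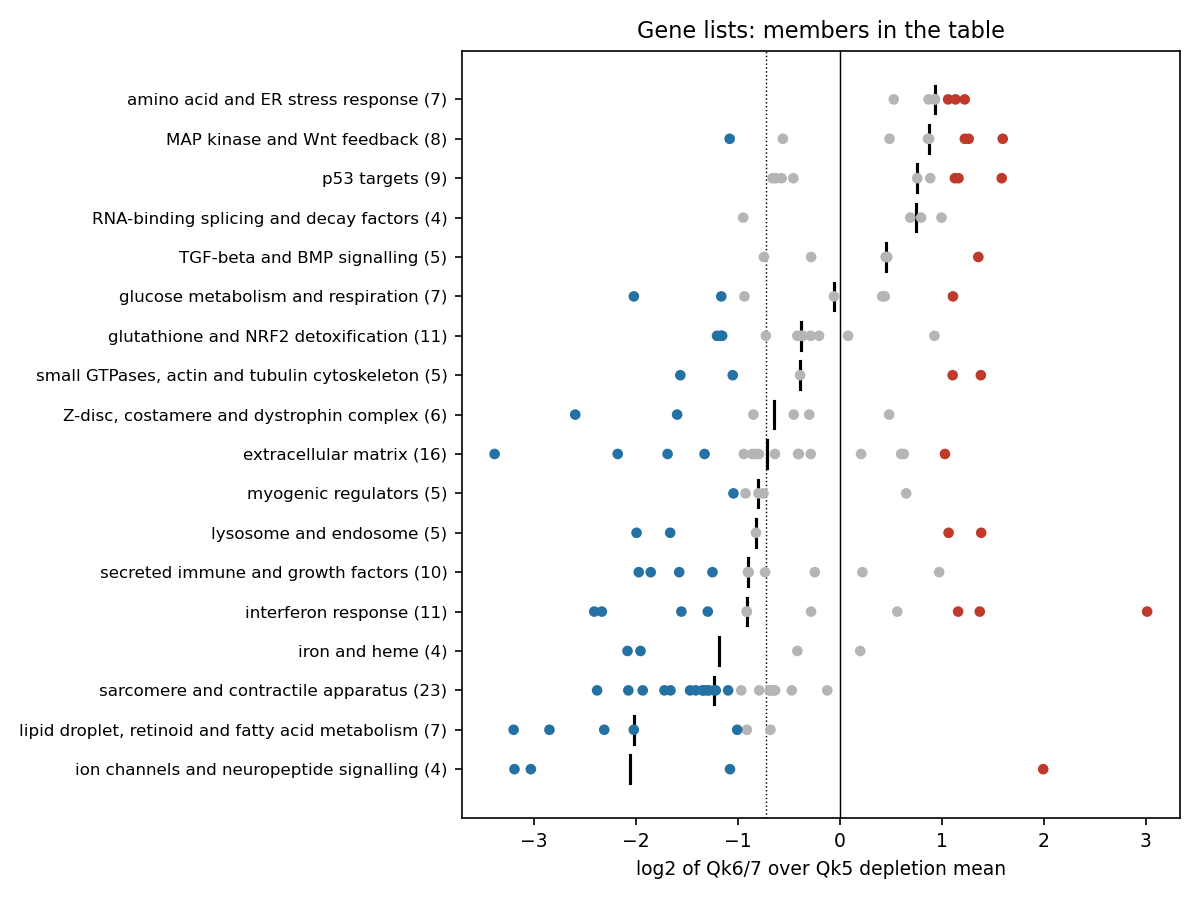
Direct log2 ratio of Qk6/7 depletion over Qk5 depletion for the members in the table of the 18 lists with at least 4 of them (number in brackets), 1 point a gene. Red points were called higher in Qk6/7 depletion, blue points lower, grey points not called; black bars are list medians, and the dotted line is the table's median of -0.72. All amino acid and ER stress genes lie above 0 and all sarcomere and lipid genes below it, though Tnnt1 (-0.12) and Fabp3 (-0.68) lie above the table's median.

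Exon use was compared with the authors' deposited table of bins, stretches of exon that transcripts of a gene use or skip as 1 unit. Its DEXSeq p-value covers the 3 conditions together, so a log2 ratio between the depletions gives the size of a difference and was not tested on its own. Of 3737 bins with an adjusted p, 231 (6.18%) in 192 genes were under 0.05 in the authors' deposited table. That table holds bins of 228 genes only, most of them with such a bin. Shares of bins here and below therefore describe these genes and are no rates over all genes. A bin was called when its log2 ratio was also at least 1 in size. By that rule 30 bins (0.803%) were used more in Qk6/7 depletion and 48 (1.28%) less, 78 (2.09%) in all, in 66 genes. Among bins at or above 0.05 in adjusted p, 76 of 3506 had a log2 ratio of 1 or more and 53 of -1 or less in the authors' deposited table.

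In most called bins Qk5 depletion stood further from control. Of the 78, the larger distance from control was that of Qk6/7 depletion in 18 and that of Qk5 depletion in 60. This count and those that follow cover the called bins alone. No such share over bins that were not called is given here, so they describe the 78 only. In 51 the Qk6/7 depletion value lay within 0.5 of control on the log2 scale, and in 11 the Qk5 depletion value did. Bins used more in Qk6/7 depletion had a median log2 of 0.19 over control in Qk6/7 depletion and -1.19 in Qk5 depletion in the authors' deposited table, and bins used less had -0.32 in Qk6/7 depletion and 1.48 in Qk5 depletion. The signs over control were opposite in 58, and in 14 of these both depletions stood more than 0.5 from control. A bin was called for a large gap between the depletions, and such a gap by itself favours opposite signs. The count of 58 is thus set in part by the calling rule.

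**Figure D5:**
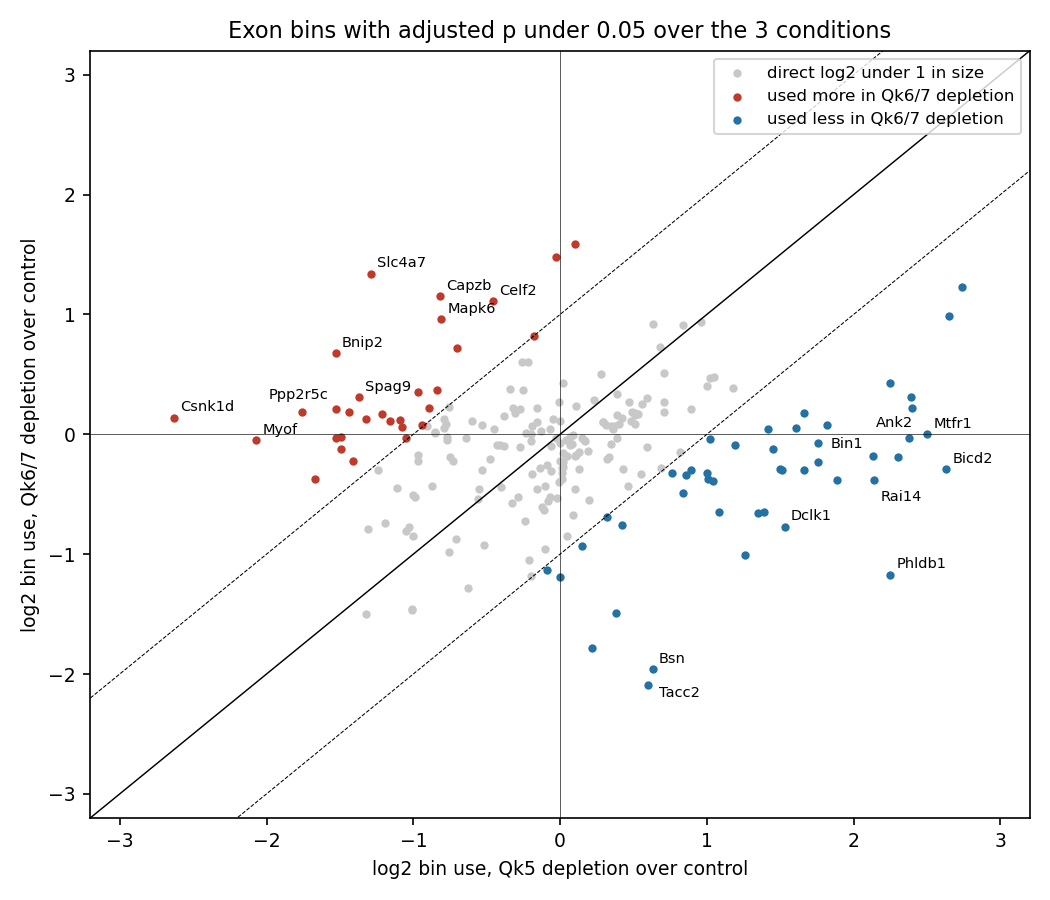
The authors' log2 bin use over control in Qk6/7 depletion (vertical axis) and in Qk5 depletion (horizontal axis) for 229 of the 231 bins with DEXSeq adjusted p under 0.05 over the 3 conditions; 2 bins lie outside the axes. Red bins were used at least 2-fold more in Qk6/7 depletion than in Qk5 depletion, blue bins at least 2-fold less, the solid line is equal use and the dashed lines a 2-fold difference; most coloured points spread along the horizontal axis.

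The largest log2 ratio among bins used more in Qk6/7 depletion was that of the last bin of Csnk1d, a casein kinase of the circadian clock (mm9 chr11:120819779-120820609, minus strand), at 2.77 in the authors' deposited table. Its log2 over control was 0.14 in Qk6/7 depletion and -2.63 in Qk5 depletion in the authors' deposited table (its DEXSeq adjusted p = 1.27e-06). An internal bin of Slc4a7, a sodium bicarbonate transporter (chr14:15574928-15575296, plus), had a ratio of 2.63 and stood apart from control on both sides, at 1.34 in Qk6/7 depletion and -1.29 in Qk5 depletion, in the authors' deposited table. A 36-base bin of Bnip2 (chr9:69852113-69852148, plus) had a ratio of 2.21, and a 39-base bin of Myof, the membrane repair and fusion protein myoferlin (chr19:38044397-38044435, minus), one of 2.02, in the authors' deposited table. In Myof the Qk6/7 depletion value was at control (-0.05) and the Qk5 depletion value at -2.07 in the authors' deposited table.

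Capzb, the actin capping protein beta subunit, had a 113-base bin (chr4:138844776-138844888, plus) with a ratio of 1.96, at 1.15 in Qk6/7 depletion and -0.82 in Qk5 depletion over control, in the authors' deposited table. Further bins used more were in Ppp2r5c, a regulatory subunit of protein phosphatase 2A (1.94), the atypical kinase gene Mapk6 (1.77), Lrrfip1 (1.74), Spag9, a scaffold of JNK signalling (1.68), Pcdh1 (1.63), Celf2 (1.57) and 1810032O08Rik (1.5) in the authors' deposited table. Dst, which encodes giant linkers between filament systems, had 3 called bins, all used more in Qk6/7 depletion.

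On the other side, a 129-base bin of Phldb1 (chr9:44516477-44516605, minus) had a log2 ratio of -3.42, with -1.17 in Qk6/7 depletion and 2.25 in Qk5 depletion over control, in the authors' deposited table (its DEXSeq adjusted p = 1.66e-05). Bicd2, an adaptor of the dynein motor, had a 1717-base bin (chr13:49478623-49480339, plus) at -2.91, with -0.29 in Qk6/7 depletion and 2.63 in Qk5 depletion, in the authors' deposited table (its DEXSeq adjusted p = 3.17e-40). Bins of Tacc2 (-2.70) and Bsn (-2.59) differed from these in that Qk6/7 depletion stood further from control, at -2.09 and -1.96, in the authors' deposited table. An 87-base bin of Rai14 (chr15:10519014-10519100, minus), a gene for an actin-linked ankyrin-repeat protein, had a ratio of -2.52, with -0.38 in Qk6/7 depletion and 2.14 in Qk5 depletion, in the authors' deposited table.

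Bin1, a membrane-bending protein of muscle T-tubules, had a 93-base bin at -2.31, and Ank2, ankyrin B, a 1777-base bin (chr3:126644528-126646304, minus) at -2.40, in the authors' deposited table. In both, Qk6/7 depletion stood near control (-0.18 for Bin1 and -0.03 for Ank2) and Qk5 depletion did not (2.13 and 2.38), in the authors' deposited table. Mtfr1 (-2.51) and Dclk1 (-2.30) were also among the largest in the authors' deposited table, and Dclk1, a microtubule-binding kinase, had 5 called bins, all used less in Qk6/7 depletion. A bin of the exocyst gene Exoc1 (-14.15) and one at chrX:34460364-34460408, whose symbol is stored as a date, (-12.73) are listed further out in the authors' deposited table. Of 81 bins beyond 5 in size these were the 2 with adjusted p under 0.05, and values of that size are read here as a direction and not as a fold.

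In 3 genes bins were called on both sides. Tpm1, the gene of alpha-tropomyosin, which winds along actin filaments, had a bin used more in Qk6/7 depletion (chr9:66876828-66877470, minus) at 1.37 and one used less (chr9:66871649-66872372, minus) at -1.56 in the authors' deposited table. For both bins Qk6/7 depletion stood near control, at 0.17 and 0.05, and Qk5 depletion did not, at -1.21 and 1.61, in the authors' deposited table. Syngr1, a synaptic vesicle protein, had its last bin (chr15:79946285-79949931, plus) at -2.50 and the bin before it (chr15:79943596-79943870, plus) at 1.15 in the authors' deposited table. AK017143 had its first bin (chr5:22939155-22940044, minus) at -1.07 and 2 later bins at 1.5 and 1.49, and there Qk6/7 depletion stood away from control, at -0.93, 1.48 and 1.59, in the authors' deposited table.

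By place in the gene, 18 of the 30 bins used more and 28 of the 48 used less were internal bins separate from their neighbours (60.0% and 58.3%, against 69.4% of tested bins). Of those, 66.7% and 67.9% had a length that is a multiple of 3, against 44.9% of tested bins of that kind. Last bins were 3 of the 30 and 6 of the 48, against 5.75% of tested bins. Internal bins that abut a neighbour were 9 of the 30 and 12 of the 48, against 19.5% of tested bins, and these were long, with median lengths of 835 and 912.5 bases against 168 for tested bins of that kind.

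Level and exon use stood side by side for 31 genes. Of these, 11 were called in level (42.3% of all tested genes were), 8 had a called bin (66 of all 228 genes with bins did) and 2 had both. Whether the 2 readouts go together was not tested. After centring 4 were called in level, and the 2 with both were Fmr1 and Gas2l1. Fmr1, whose protein represses translation and is lost in fragile X syndrome, was higher in level (log2 ratio 1.14), with 2513 normalized counts in Qk6/7 depletion and 1142 in Qk5 depletion, against 2203 in control, in the authors' deposited table. Its bin of 900 bases (chrX:65944770-65945669, plus) was used less, at -1.57, in the authors' deposited table. Hgf was lower in level (-1.25; not called after centring), with 326 in Qk6/7 depletion and 776 in Qk5 depletion, against 388 in control, and its bin at chr5:16078453-16079252 (plus) was used more, at 1.27, in the authors' deposited table. For both genes the bin and the level differed in opposite directions. The other 6 genes with a called bin, none of them called in level before centring, were Celf2 (level -0.95), Gas2l1 (0.90), Lamp2 (-0.82), Ndrg4 (-0.78), Myo5a (-0.63) and Sorbs2 (-0.37).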

How the data were processed

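RNA of C2C12 cells was sequenced after siRNA transfection. The build mm9 and the tools TopHat2, Bowtie2, bedtools, SAMtools and DESeq are named per the submitters' processing notes; for versions, strand setting, gene models and the joining of the 2 runs of replicate 1, nothing is given in the sources used here. Per the file headers, the deposited expression table holds the authors' mean signal per condition (counts divided by size factors), the ratio (fold) over control, its log2, p-values and a direction score. Per the file headers, the deposited splicing tables hold the authors' log2 fold of bin use, a dispersion score and DEXSeq p-values. No values per replicate were among them, and the depth is unknown. One expression row broken across columns was rejoined, and 3 genes listed at 0 in a condition were not tested (among them AK083197 and Isx); some items are not reported here.

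The members and lists were chosen with earlier results of these data known. Direct ratios, errors implied by deposited p-values (absolute log2 fold over the normal quantile of p/2), the approximate two-sided normal test and Benjamini-Hochberg adjustment were computed with Python 3.11.15, pandas 2.3.3, numpy 2.4.6 and scipy 1.17.1, and the test was tested on simulated data, where it found nearly all genes changed in 1 depletion but also called some unchanged genes that had entered the table by chance. The simulated p-values came from a normal test and not from DESeq. The simulation therefore could not check how well an error is recovered from a DESeq p-value. Taking 1 error for both folds ignores how a gene's error differs between comparisons. Named genes were Qk, the 12 largest and 12 smallest called ratios at or above the median level, 6 and 6 under it with an average of at least 10, up to 5 called members of each of 24 lists, and other members by value. Named bins were the 12 largest and 12 smallest under adjusted p 0.05 and genes with called bins on both sides. Genes were matched by symbol to GENCODE M21 (GRCm38) for 3′ UTRs (957 of 1036 matched), and no coordinate was carried between builds. Alternatives were another form of the ratio, centring, pseudocounts, level, fold and p limits.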

Additional observations from a re-analysis of the deposited data

How the results depend on the processing

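No value per replicate limits every result: no interval, leave-one-replicate-out fit or bin count filter could be computed. No paired analysis was possible because the deposited tables hold no values per replicate. Genes higher and lower in Qk6/7 depletion numbered 67 and 370. Centring on the median gave 297 and 117, the average level at or above the median 34 and 98, a 3-fold limit 12 and 153, and the approximate adjusted p alone 241 and 583. A 1.5-fold limit gave 217 higher and, within 1.5 times of the count, 554 lower. Bins used more in Qk6/7 depletion were 30, against 55 at a log2 limit of 0.5 and 13 at 1.5. For the level, fold and p limits the change follows from the limit itself; for centring it follows from the shift of every ratio by the same amount. The other alternatives (difference of deposited folds, pseudocounts of 1 and 10, level of at least 10, an authors' call against control, fold limit alone, error from the larger p-value, bin adjusted p of 0.01 or 0.1) stayed within 1.5 times of the counts. For the 82 named genes, 941 values under alternatives held 871 with the same call, 67 that lost it, 3 that gained it and 0 with the sign turned; of those lost, 36 were at the 3-fold limit, 23 under centring, 7 with a pseudocount of 10 and 1 with the larger error.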

Other observations

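A block of zinc finger genes on mouse chromosome 2, chosen after its values were seen, had 14 members in the table, and all 14 direct log2 ratios were negative. Of these 7 were called lower in Qk6/7 depletion and none higher (35.8% of tested genes were called lower), with a median of -1.04 and a range of -1.32 to -0.46. Gm14434, for example, is listed in 2 gene clusters, with 142 normalized counts in Qk6/7 depletion and 354 in Qk5 depletion, against 160 in control, in one of them in the authors' deposited table. Zfp931 had 52.4 in Qk6/7 depletion and 98.9 in Qk5 depletion, with 37.7 in control, in the authors' deposited table. These genes are near-identical copies whose reads can be shared, so they are not 14 separate measurements. After centring, none of them would stand 2-fold lower.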
